A study of Mus musculus with 13 samples.

Results

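Intronic R-loop regions that were called in some but not all libraries of a DRIP-seq study were described in N2a cells, a mouse neuroblastoma line. Peaks of the 9 libraries not digested with RNase H were merged where they overlapped, and a merged region was kept when it was under 5000 bases wide, when 2 to 8 of the 9 libraries called it, when its midpoint lay inside a gene but in no exon, and when that midpoint was more than 1 kb from every transcript start and from the 3′ end of every protein-coding gene (mouse build mm9, GENCODE vM1 annotation). This rule kept 17055 of 69497 merged regions (24.5%), which are 55.8% of the 30565 regions called in 2 to 8 libraries. They are called variable intronic regions here. The calls chose the regions, so a region's number of calling libraries is a description and no finding.

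The cells carried no engineered allele (their genotype is given as WT) and were transfected with scramble siRNA (siScramble), siRNA against the putative RNA helicase DDX1 (siDDX1) or siRNA against EXOSC3 (siEXOSC3), a structural subunit of the RNA exosome, which is a ribonuclease complex. Each group had 3 libraries from separately seeded plates of 1 cell line and 1 further library whose DNA was digested with RNase H before the pull-down. Time after transfection is not given in the sources used here, and DNA libraries hold no measure of how far either protein was depleted. The treatment in the sample titles and the treatment inside the peak names differed in 12 of 12 lists, always by one rotation. Peak names read siDDX1 under the title siScramble, siEXOSC3 under the title siDDX1 and siScramble under the title siEXOSC3. Groups below follow the titles, and any direction between groups depends on that choice.

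An R-loop forms when nascent RNA anneals back to its template strand behind the polymerase and leaves the other DNA strand unpaired. R-loops are best known at promoters and at gene ends, but they also form along gene bodies, where G-rich RNA, slow transcription or slow RNA processing can hold the hybrid in place. RNA helicases and ribonucleases such as RNase H and the RNA exosome act on the RNA of these structures. In DRIP-seq the S9.6 antibody pulls down hybrids after the genome has been cut with restriction enzymes, here BsrGI, EcoRI, HindIII, SspI and XbaI, so that a hybrid is recovered together with the whole restriction fragment that carries it. Fewer cells with a hybrid and less hybrid per cell cannot be told apart in such libraries.

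The stretches below are 300 bases round the strongest summit of 8 regions, read from the mm9 genome on the sense strand of the host gene. They are shown because the first 6 are the clearest regions called by every library in 1 group and by no library outside it, or the reverse, and the last pair are among the 5 with the highest median −log10 q over their calling libraries. Capitals mark runs of at least 4 G and recognition sites of the 5 enzymes (TGTACA for BsrGI, GAATTC for EcoRI, AAGCTT for HindIII, AATATT for SspI and TCTAGA for XbaI). The region in Eya4, a transcriptional coactivator and phosphatase, was called in siScramble libraries alone (chr10:23053777-23054076, minus strand). The region in Phf20, a reader of methylated lysine, was called in all libraries but siScramble (chr2:156024289-156024588, plus strand). Copg2 encodes a coat protein of Golgi vesicles, and its region was called in siDDX1 libraries alone (chr6:30754659-30754958, minus strand). The region shared by Gm17536 and Kif18b, a mitotic kinesin, lies in genes on opposite strands, is printed on the plus strand, and was called in all libraries but siDDX1 (chr11:102782180-102782479). The region in Rfxank, a subunit of the factor that drives MHC class II genes, was called in siEXOSC3 libraries alone (chr8:72659773-72660072, minus strand). Agap1 encodes a GTPase-activating protein of membrane traffic, and its region was called in all libraries but siEXOSC3 (chr1:91705681-91705980, plus strand). Scube1, a secreted and cell-surface glycoprotein (chr15:83523857-83524156, minus strand), and 4932443I19Rik (chr8:13712962-13713261, plus strand) hold the last pair.
Eya4: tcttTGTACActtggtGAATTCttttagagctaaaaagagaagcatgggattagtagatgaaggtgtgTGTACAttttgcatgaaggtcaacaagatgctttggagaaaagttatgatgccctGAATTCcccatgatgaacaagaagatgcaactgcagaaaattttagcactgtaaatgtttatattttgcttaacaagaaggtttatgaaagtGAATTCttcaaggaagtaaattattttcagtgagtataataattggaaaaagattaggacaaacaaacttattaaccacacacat
Phf20: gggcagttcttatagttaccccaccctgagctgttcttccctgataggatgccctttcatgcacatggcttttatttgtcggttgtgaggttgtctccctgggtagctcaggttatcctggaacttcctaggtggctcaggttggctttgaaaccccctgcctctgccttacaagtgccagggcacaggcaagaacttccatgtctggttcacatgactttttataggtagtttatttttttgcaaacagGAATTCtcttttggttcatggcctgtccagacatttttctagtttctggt
Copg2: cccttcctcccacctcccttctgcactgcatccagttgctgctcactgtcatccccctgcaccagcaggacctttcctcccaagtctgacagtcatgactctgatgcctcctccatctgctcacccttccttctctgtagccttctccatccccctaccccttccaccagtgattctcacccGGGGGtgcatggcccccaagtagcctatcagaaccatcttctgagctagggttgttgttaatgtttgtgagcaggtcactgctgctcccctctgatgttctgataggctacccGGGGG
Gm17536 and Kif18b: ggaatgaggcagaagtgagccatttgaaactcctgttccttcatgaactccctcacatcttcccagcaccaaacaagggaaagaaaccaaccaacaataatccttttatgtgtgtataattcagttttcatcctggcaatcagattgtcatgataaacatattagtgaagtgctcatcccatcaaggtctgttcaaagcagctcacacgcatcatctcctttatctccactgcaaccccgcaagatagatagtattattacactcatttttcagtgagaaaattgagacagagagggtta
Rfxank: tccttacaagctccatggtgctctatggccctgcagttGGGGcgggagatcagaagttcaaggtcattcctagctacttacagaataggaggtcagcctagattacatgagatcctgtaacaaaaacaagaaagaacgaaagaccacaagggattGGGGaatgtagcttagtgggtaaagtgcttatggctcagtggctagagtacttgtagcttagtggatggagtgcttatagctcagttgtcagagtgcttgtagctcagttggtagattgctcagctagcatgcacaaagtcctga
Agap1: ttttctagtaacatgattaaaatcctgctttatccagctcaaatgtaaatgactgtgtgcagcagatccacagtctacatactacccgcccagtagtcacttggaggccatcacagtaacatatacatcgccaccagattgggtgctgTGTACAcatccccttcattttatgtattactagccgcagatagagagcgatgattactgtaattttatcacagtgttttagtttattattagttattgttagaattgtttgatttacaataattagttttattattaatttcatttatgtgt
Scube1: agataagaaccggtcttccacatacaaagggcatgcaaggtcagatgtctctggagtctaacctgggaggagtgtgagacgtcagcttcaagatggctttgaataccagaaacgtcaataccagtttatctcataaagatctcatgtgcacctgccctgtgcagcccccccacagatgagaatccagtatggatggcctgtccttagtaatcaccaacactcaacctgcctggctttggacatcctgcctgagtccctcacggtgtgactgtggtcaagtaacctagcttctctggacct
4932443I19Rik: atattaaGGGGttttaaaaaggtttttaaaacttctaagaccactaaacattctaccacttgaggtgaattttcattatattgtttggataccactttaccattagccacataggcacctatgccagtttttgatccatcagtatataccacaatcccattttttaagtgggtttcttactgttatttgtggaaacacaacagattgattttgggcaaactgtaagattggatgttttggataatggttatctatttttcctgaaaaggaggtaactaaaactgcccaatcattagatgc

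These stretches had little in common. Their GC content ran from 32.7% in Eya4 to 56.7% in Copg2. The Eya4 stretch held 5 recognition sites, those of Phf20 and Agap1 held 1 each, and the other 5 held 0. The Copg2 and Rfxank stretches held 2 runs of G each and the 4932443I19Rik stretch held 1. Over the 16480 variable intronic regions with hosts on 1 strand, GGGG occurred on the sense strand in 54.2% of the 300-base windows round the region, against 58.5% of 1924 windows in intronic regions called by 9 of 9 libraries and 46.3% of all intronic windows of that length. CCCC, the same run on the opposite strand, occurred in 53.3%, 57.4% and 45.8%. A site of the 5 enzymes lay in 41.0% of the windows, against 52.0% for regions called by 9 of 9 libraries and 40.5% of all intronic windows. In 19070 windows of intronic regions called by 1 library, GGGG occurred in 54.4%, CCCC in 52.0% and a site in 32.3%. In GGGG the variable regions were thus like those called by 1 library.

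The variable intronic regions covered 17.4 Mb with a median width of 781 bases (quartiles 525 and 1264). Widths ran from 250 to 4981 bases. The narrowest intronic region left out for its width had 5013 bases, and 47 were left out in this way. A median of 8.91 kb separated the regions from the nearest transcript start (quartiles 3.73 and 20.3 kb). Since the rule used the midpoint, 4587 regions (26.9%) touched an exon with at least 1 base, and 15799 (92.6%) had both edges over 1 kb from starts and coding gene ends. In 8237 regions (48.3%) no recognition site of the 5 enzymes lay inside, so that the region was a part of 1 restriction fragment. Per Mb of intron that could hold a midpoint (912 Mb in all), 18.7 regions were found.

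Host genes of these regions numbered 5693, of which 5413 were protein coding (24.2% of 22380 annotated) and 148 were lincRNA genes. Coding hosts had a median length of 34.7 kb, against 15.4 kb for all coding genes. A transcript start lay in a region called by 9 of 9 libraries in 31.3% of coding hosts and in 10.4% of coding genes without a variable intronic region. Along their genes, 22.2%, 24.4%, 25.8% and 27.6% of the regions lay in 4 successive parts of equal length from the start to the end. First introns held 23.8% of the regions and made up 26.9% of the intron length of the same genes. Density was highest on chromosomes 11, 8 and 15, at 26.5, 25.6 and 24.8 regions per Mb of gene, and lowest on chromosome X, at 3.14. Single hosts were common, with 2286 genes holding 1 region, while 262 genes held 10 or more and 47 held 20 or more.

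Regions called in few libraries made up most of the set, and they were small and weak. Of the 17055 regions, 6368 were called in 2 libraries and 3378 in 3, and the numbers for 4, 5, 6, 7 and 8 libraries were 2184, 1531, 1275, 1126 and 1193. Intronic regions called in 1 library numbered 19711 and those called in 9 of 9 numbered 1992. The median width rose from 537 bases at 2 libraries to 2294 at 8, with 326 and 3079 bases for the single-library and the constant regions just outside the rule. At the summit, the position of highest coverage, the median number of sequenced fragments rose from 8 at 2 libraries to 10 at 8, with 7 and 12 outside the rule. These measures come from the same calls that chose the regions, and no test was made of them. The lowest summit called in a variable intronic region had 5 to 7 fragments, depending on the library.

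Libraries differed far more than groups did in how many variable intronic regions they called. siScramble libraries 1, 2 and 3 called 3773, 9216 and 10756 of them. siDDX1 libraries called 10546, 4103 and 6467. siEXOSC3 libraries called 4529, 5638 and 9309. The 3 groups overlapped in full, and each group held libraries below 30% and above 50% of all regions. Mean numbers were 7915 ± 3669 for siScramble, 7039 ± 3259 for siDDX1 and 6492 ± 2502 for siEXOSC3 libraries (SD, n = 3 each), and an exact permutation test of the F statistic over the 280 ways to deal 9 libraries into 3 groups gave p = 0.939 (adjusted p = 0.939 over 3 tests). The log2 difference was -0.14 for siDDX1 against siScramble, -0.22 for siEXOSC3 against siScramble and -0.08 for siEXOSC3 against siDDX1, with exact two-sided permutation p of 0.9, 0.9 and 0.8, where 3 against 3 cannot go below 0.1.

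The number of peaks in a library moved with these counts. Libraries held 23882 to 42571 peaks, a 1.78-fold range, while the number of variable intronic regions called spanned 2.85-fold. Over the 9 libraries the counts correlated at r = 0.97 (exact permutation, adjusted p = 0.000683) and rho = 0.93 (adjusted p = 0.0015), and at r = 0.99 without the 2 libraries farthest from the median peak number. Each such call is itself a peak of that list, so the measures share their source. Background coverage of a library was taken at the low end of the expected coverage over its peaks, as recovered from the lists. It ran from 0.544 to 1.29 fragments per position and gave r = 0.39 with the counts (exact permutation p = 0.369) and rho = 0.07 (p = 0.88). The percent of a library's peaks that lay in variable intronic regions was 25.3 ± 6.36, 24.7 ± 5.56 and 22.0 ± 3.70 for siScramble, siDDX1 and siEXOSC3 (SD, n = 3 each), with p = 0.714 by exact permutation (adjusted p = 0.939).

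**Figure D1:**
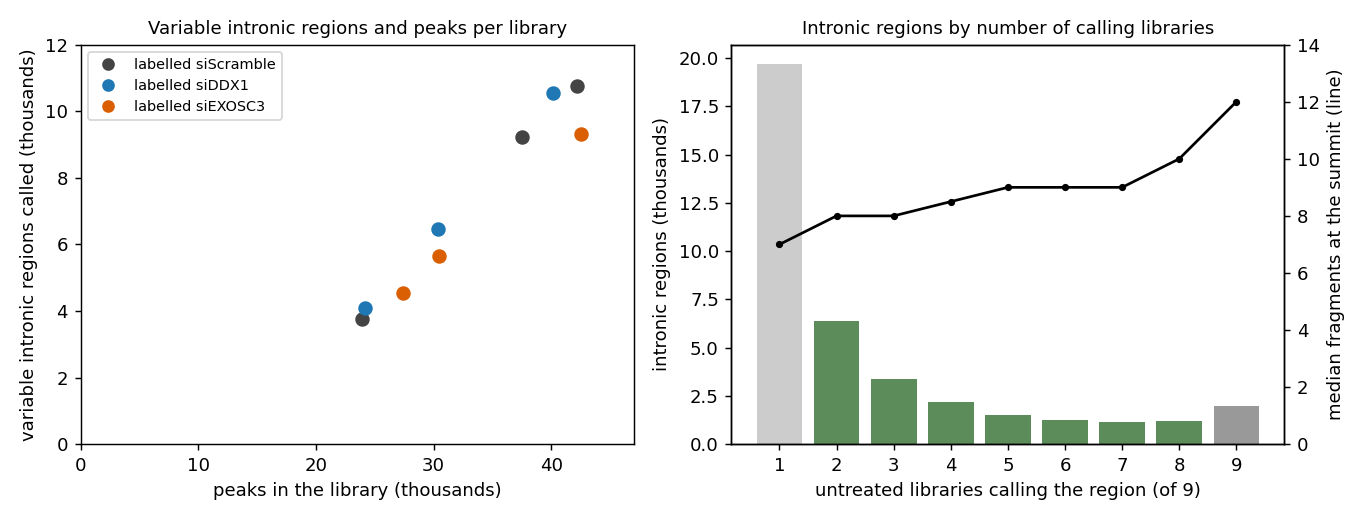
Left, variable intronic regions called (in units of 1000, vertical) against all peaks of the same library (in units of 1000, horizontal), 1 point per untreated library and colours by titled group. Right, intronic regions by the number of calling libraries (bars, in units of 1000, of which the 7 green ones are the variable intronic regions) with the median number of fragments at the summit (black line, right axis). Points of all 3 groups lie along one rising band from 3773 to 10756 regions, and bars fall from 6368 regions at 2 libraries to 1126 at 7.

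The libraries with few peaks were also those missing from widely called regions. Among the 1193 regions called in 8 libraries, the missing one was siDDX1 replicate 2 in 336 (28.2%) and siScramble replicate 1 in 303 (25.4%), but siScramble replicate 3 in 8 and siDDX1 replicate 1 in 7. Agreement between libraries was measured by the Jaccard index, the regions called in both divided by the regions called in either. It was highest between siScramble replicate 3 and siDDX1 replicate 1 (0.482), libraries of different groups, and lowest between siScramble replicate 1 and siDDX1 replicate 2 (0.175). Its mean was 0.305 within groups and 0.292 between groups. They differed by 0.0134 (exact permutation test, one-sided, p = 0.193, adjusted p = 0.579). Leaving out 1 library gave differences from 0.00376 (without siDDX1 replicate 2) to 0.0359 (without siDDX1 replicate 1), with exact permutation p from 0.0643 to 0.332. When each library was reduced to its most significant peaks so that all held the same number, the difference was 0.0346 with an exact permutation p of 0.00357, the smallest that 280 deals can give. In that setting alone, libraries of 1 group thus shared more calls than libraries of different groups, in a set that then held 10482 regions. That p was not adjusted, and the settings of q, joining, covering and distance gave exact permutation p from 0.175 to 0.232.

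Composition of the called regions separated the siEXOSC3-titled libraries from the others, although the test of the number called did not pass. These 5 measures were chosen after values of these data had been seen. Called regions had a mean GC content of 46.3%, 46.0% and 46.2% in siScramble libraries 1, 2 and 3, of 46.4%, 46.0% and 46.2% in siDDX1 libraries, and of 47.5%, 47.2% and 47.3% in siEXOSC3 libraries. Every siEXOSC3 library lay above all other 6. Group means were 46.2 ± 0.174, 46.2 ± 0.178 and 47.3 ± 0.156 (SD, n = 3 each), and the exact permutation test of F gave p = 0.0286 (adjusted p = 0.0476 over 5 measures). If the names inside the peak lists are right, the libraries that stand apart are the scramble controls.

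In the same libraries a lower share of the called regions lay in long genes. Of the called regions, 28.1%, 28.7% and 31.0% lay in genes of 100 kb or more in siScramble libraries, 29.5%, 32.8% and 31.6% in siDDX1 libraries and 22.5%, 26.0% and 27.6% in siEXOSC3 libraries. The highest siEXOSC3 value lay below the lowest siScramble value. Means were 29.3 ± 1.5, 31.3 ± 1.67 and 25.4 ± 2.61 (SD, n = 3 each), with p = 0.0143 by exact permutation (adjusted p = 0.0476). Without siEXOSC3 replicate 1 the p was 0.0714 and without siDDX1 replicate 2 it was 0.0536. Called regions also lay nearer to a transcript start, with medians of 8.60, 8.79 and 9.07 kb in siScramble libraries, 8.51, 9.39 and 9.41 kb in siDDX1 libraries and 6.92, 7.75 and 8.44 kb in siEXOSC3 libraries (exact permutation p = 0.025, adjusted p = 0.0476). This p ran from 0.0143 to 0.1 when 1 library was left out. It rose above 0.05 when any 1 of the siScramble libraries, siDDX1 replicate 2 or 3, or siEXOSC3 replicate 1 was left out. Shares on chromosomes 11 and X did not pass (adjusted p = 0.107 and 0.904 in the same exact permutation tests).

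**Figure D2:**
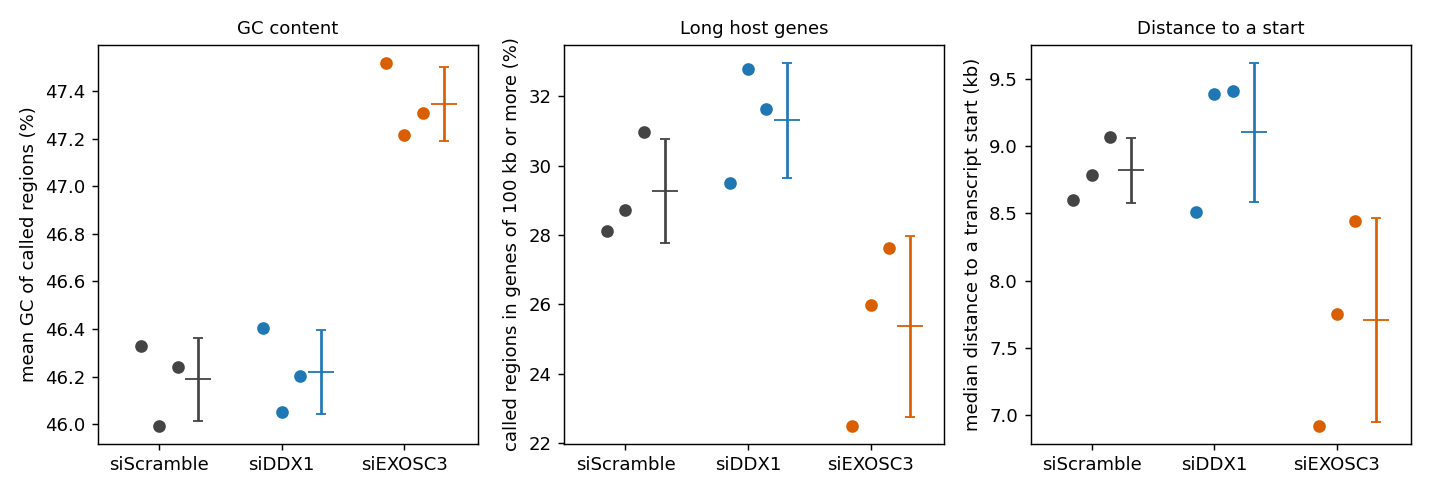
Mean GC content (%), share in genes of 100 kb or more (%) and median distance to a transcript start (kb) of the variable intronic regions each library called. Each point is 1 library, bars beside the points are the mean ± SD of 3 libraries, groups follow the titles, and the vertical axes do not start at 0. The siEXOSC3 points lie between 47.2% and 47.5% GC, above all others, and below all others in both other panels.

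The difference in GC content was not particular to introns. Called variable intergenic regions had a mean GC content of 46.4 ± 0.305, 46.7 ± 0.1 and 47.5 ± 0.120 in siScramble, siDDX1 and siEXOSC3 libraries (SD, n = 3 each, exact permutation p = 0.0107). In the 1992 intronic regions that every library called, where the groups share the regions and only the extent of the peaks can differ, the mean GC content of the peaks was 48.2% in each group (exact permutation p = 0.446). Background coverage in siEXOSC3 libraries (0.554 to 0.635 fragments) lay within the range of the other libraries, and its part in the GC difference was not tested.

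Within libraries, peaks in variable intronic regions differed from those in the constant intronic regions, called by 9 of 9 libraries. Their mean GC content was 46.6% against 48.2% and was lower in 9 of 9 libraries. The mean difference was -1.59 ± 0.660 percentage points (SD, n = 9, exact sign-flip permutation test, adjusted p = 0.00547 over 7 tests), with a range from -2.31 to -0.625. With distances to starts and ends taken from the nearest edge of a region in place of its midpoint, the difference was -0.943 points. GC skew on the sense strand, the excess of G over C as a fraction of both, was 0.0236 against 0.0329 and was also lower in 9 of 9 libraries (difference -0.0093 ± 0.00217, exact permutation, adjusted p = 0.00547). Both classes stood above the introns as a whole, where GC content was 42.3% and skew 0.0135. So did the single-library intronic regions, with a mean GC content of 45.8% over whole regions, against 46.4% in whole variable regions. Skew was above 0 in 62.3% of the variable regions, 74.4% of the constant regions and 58.3% of the single-library regions. The mean skew of whole regions was 0.0278, 0.0415 and 0.0280 in the same order, so variable and single-library regions were alike in it. Their mean widths were 1022, 3061 and 371 bases, and the part of width in these percentages was not tested. Libraries share regions, so these p-values describe how alike the libraries were and not independent loci.

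Edges on restriction sites were less frequent in the variable class. A peak edge lay on a cut site in 50.4 ± 4.56% of peaks in variable intronic regions and in 58.4 ± 5.95% of peaks in constant ones (SD, n = 9), with differences from -16.1 to -2.95 points over the 9 libraries (exact permutation, adjusted p = 0.00547). The mean difference was -7.95 points, and it was -25.9 points when the peaks of a library had to cover most of a region to call it. Peaks in variable intergenic regions, at 53.6 ± 4.20%, also exceeded them in 9 of 9 libraries (exact permutation, adjusted p = 0.00547). Where several libraries called a variable intronic region, 18.7% of the pairs of calls had the same left edge to the base.

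RNase H-resistant signal was rare in the variable intronic regions. Among the 17055 regions, 340, 232 and 255 overlapped a peak of the siScramble, siDDX1 and siEXOSC3 RNase H libraries, 423 (2.48%) overlapped at least 1 of the 3 and 161 overlapped all 3. The corresponding share was 5.07% for constant intronic regions, which are wider, 1.66% for single-library regions and 10.2% for variable intergenic regions. Per library, 0.937% to 2.75% of peaks in variable intronic regions overlapped a peak of the RNase H library of the same group, with a mean of 1.60 ± 0.519% against 1.80 ± 0.377% in constant regions (SD, n = 9, exact permutation, adjusted p = 0.168), lower in 7 libraries and higher in 2. That call depended on the threshold, with a difference of -0.88 points and an adjusted p of 0.00456 (exact permutation) among peaks of −log10 q of at least 5. Against variable intergenic regions the share was lower in 9 of 9 libraries, at 1.60% against 8.46 ± 2.70% (exact permutation, adjusted p = 0.00547). The RNase H libraries held 3811 to 8034 peaks and a background coverage of 1.13 to 1.59 fragments, against 0.544 to 1.29 in the untreated libraries.

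**Figure D3:**
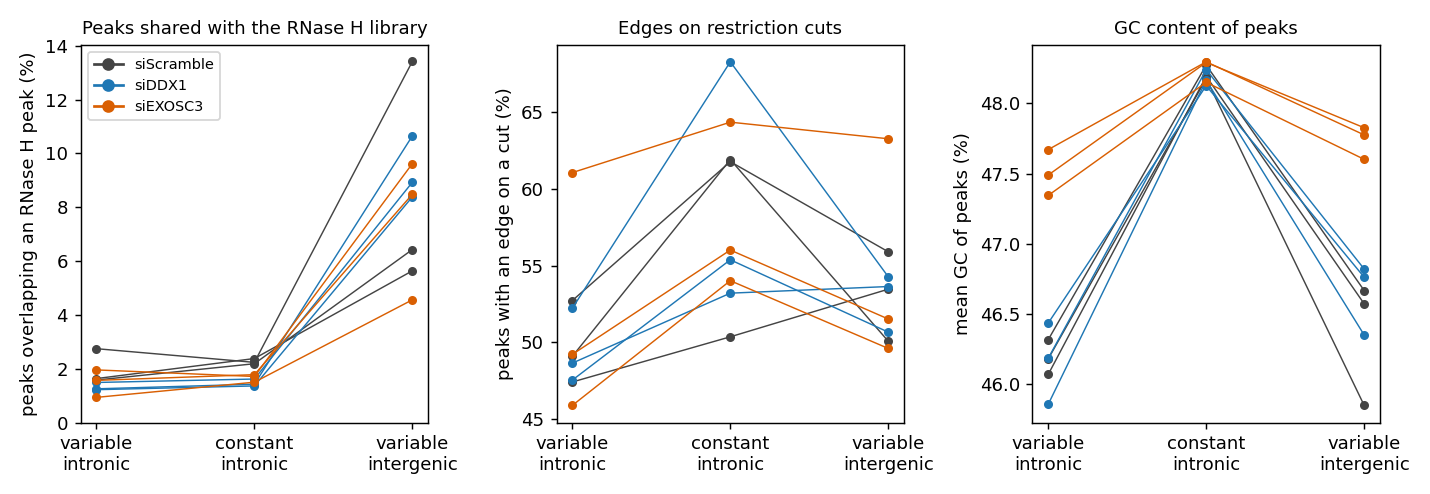
Share of peaks that overlap a peak of the group's own RNase H library (%), share with an edge on a cut site (%) and mean GC content (%) for peaks in variable intronic, constant intronic and variable intergenic regions. Each point is 1 untreated library, lines join the values of a library, and colours give the titled group. The RNase H share of variable intergenic peaks lies between 4.56% and 13.4%, above both intronic classes, and the GC content of constant intronic peaks lies near 48.2% in every library.

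All-or-none regions, with calls from 3 of 3 libraries in 1 group and from 0 of 3 in another, were a small part of the set, and the shares below are given beside the share over all 30565 regions called in 2 to 8 libraries. For siDDX1 against siScramble, 76 variable intronic regions (0.446%, background 0.455%) were called in siDDX1 libraries alone of the pair and 150 (0.880%, background 0.916%) in siScramble libraries alone. Both shares lay near the background. For siEXOSC3 against siScramble, 138 (0.809%, background 1.24%) were called in siEXOSC3 alone of the pair and 246 (1.44%, background 1.16%) in siScramble alone. For siEXOSC3 against siDDX1, 122 (0.715%, background 1.15%) were called in siEXOSC3 alone of the pair and 179 (1.05%, background 0.893%) in siDDX1 alone. In both comparisons that involve siEXOSC3 the regions missing from it outnumbered those particular to it among the introns, while over all 30565 regions the order was the reverse. This background includes the variable intronic regions themselves. In the 13510 other regions the shares were 0.466% and 0.962% for siDDX1 and siScramble. They were 1.78% and 0.814% for siEXOSC3 and siScramble, and 1.70% and 0.696% for siEXOSC3 and siDDX1. A single region cannot pass a test here, since 3 against 3 allows no p under 0.1.

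Regions called throughout 1 group and by 0 of the 6 other libraries were rarer still. There were 52 for siScramble (0.305%, background 0.249%), 30 for siDDX1 (0.176%, background 0.16%) and 49 for siEXOSC3 (0.287%, background 0.445%). The reverse, calls in all 6 others and in none of the group, occurred in 3 regions for siScramble (0.0176%, background 0.0425%), in 9 for siDDX1 (0.0528%, background 0.0818%) and in 28 for siEXOSC3 (0.164%, background 0.144%). The members of these sets shown next were chosen by the size of their lowest −log10 q.

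Most of these regions rested on few fragments. The Eya4 region, in intron 1 of 18 and 15.8 kb from the nearest start, had 16, 12 and 15 fragments at the summit in siScramble libraries 1, 2 and 3, with folds of 9.47, 7.36 and 9.18 over the local background. It also overlapped a peak of the siScramble RNase H library. The other siScramble-only regions lay in Snd1, which encodes a nuclease of the RNA-induced silencing complex and encloses Lrrc4 (10, 12 and 10 fragments), and in Prr11, where the region touched an exon (9, 8 and 10 fragments). No other library called any of the 3.

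The siDDX1-only regions included the one with the most fragments of all 9 named regions called in a single group. The Copg2 region, in intron 20 of 23 and 60.3% GC over its 428 bases, had 18, 14 and 14 fragments in siDDX1 libraries 1, 2 and 3 with folds of 4.53, 6.00 and 6.33. A region in intron 1 of Sbf1, a pseudophosphatase of the myotubularin family, had 16, 12 and 12 fragments, and one in intron 6 of Sh2d3c, an adaptor protein, had 11, 8 and 8. Counts in siDDX1 replicate 1 stand above the other 2 in each case, and that library had the highest background coverage of the 9 untreated libraries.

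The siEXOSC3-only regions had 8 to 11 fragments. Rfxank had 9, 9 and 11 in siEXOSC3 libraries 1, 2 and 3 (its region touched an exon), Thap8 had 8, 11 and 10 and the ion channel gene Tmem63b had 10, 8 and 10. The median summit in variable intronic regions of the same libraries had 8, 8 and 9 fragments, and the lowest had 5. Coverage in libraries without a call is not in the lists, so how far below the threshold those libraries lay is not known here.

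Among regions that 1 group alone lacked, the Agap1 region at chr1:91704546-91706843, in intron 13 of 17 and 121 kb from the nearest start, had 9, 8 and 11 fragments in siScramble libraries and 11, 9 and 9 in siDDX1 libraries and was not called in any siEXOSC3 library. A region in Pdia3, a disulfide isomerase of the endoplasmic reticulum, had the same pattern with 8 to 15 fragments. The Phf20 region had 11, 8 and 8 fragments in siDDX1 and 8, 8 and 8 in siEXOSC3 libraries and was not called in siScramble, like one in Fam129b (6 to 16 fragments). The Kif18b region had 9, 11 and 9 in siScramble and 10, 12 and 12 in siEXOSC3 libraries and was not called in siDDX1, like one at the histone H2B gene Hist1h2bc (8 to 12 fragments). Peaks nearby bear on some of these patterns. With neighbouring peaks of a library joined across gaps of up to 1000 bases before merging, the regions that took in those of Sbf1, Rfxank, Tmem63b and Phf20 were called in 9 of 9 libraries, those of Fam129b and Pdia3 in 8, that of Prr11 in 5 and that of Sh2d3c in 4, while the other 7 kept their number of calling libraries. Some regions also rested on the wide peak of 1 library. Merged without siScramble replicate 3, the region at the midpoint of the Agap1 one was called in 2 libraries in place of 6, and no region lay at the midpoint of the Prr11 one, which 1 library covered without siScramble replicate 2. Merged without siEXOSC3 replicate 2, no region lay at the midpoints of the Rfxank and Thap8 ones, and without siEXOSC3 replicate 3 the Rfxank midpoint was covered by 1 library.

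The 5 variable intronic regions with the highest median −log10 q did not follow the groups. In Scube1, siScramble libraries had 25, 30 and 32 fragments, siDDX1 libraries 56, 29 and 21, and siEXOSC3 libraries 1 and 3 had 26 and 28, while siEXOSC3 replicate 2 had no call. That region overlapped peaks of all 3 RNase H libraries, and both of its edges lay on cut sites and were the same to the base in 8 of 8 calls. A region in Khdrbs3, an RNA-binding splicing regulator, was missing from the same library, had 13 to 53 fragments and also overlapped all 3 RNase H libraries. The region in 4932443I19Rik had 18 to 39 fragments in 6 libraries (3 siScramble, 1 siDDX1 and 2 siEXOSC3), that in Rfpl3s had 16 to 21 in 3, and that in Hspa9, a mitochondrial chaperone, had 11 to 39 in 7. None of these last 3 overlapped an RNase H peak.

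Several genes held many variable intronic regions, and their calls were followed gene by gene. Gm20388 held most, with 239, but it is a read-through model of 4.43 Mb that encloses 72 coding genes, and 185 of its regions also lay in another gene. Agap1 held 77 within 440 kb. Other such hosts were Rere, a nuclear receptor co-regulator (48), Snd1 (44), Alk, a receptor kinase known for activating mutations in neuroblastoma (42), Rptor, the raptor subunit of mTORC1 (40), Ano6, a phospholipid scramblase (38), Dst, a cytoskeletal linker (38), and Odz4, a teneurin of neuronal connections (38). Per 100 kb the numbers ran from 5.14 in Odz4 to 20.7 in Ano6 among the genes named here. Without siScramble replicate 3, Odz4 held 23 regions.

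In Agap1 the gap between libraries was wide. Of its 77 regions, siScramble libraries 1, 2 and 3 called 23, 50 and 63, siDDX1 libraries called 57, 28 and 39, and siEXOSC3 libraries called 2, 14 and 27. siEXOSC3 replicate 1 called more variable intronic regions in all than siScramble replicate 1 (4529 against 3773) and yet had 2 calls in this gene against 23. The number called in a gene was therefore set against the number that the library's overall share gives, as a log2 ratio after adding 0.5 to both. Means in Agap1 were 0.35 in siScramble, 0.42 in siDDX1 and -1.51 in siEXOSC3 (exact permutation p = 0.025, adjusted p = 0.172 over 262 genes).

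**Figure D4:**
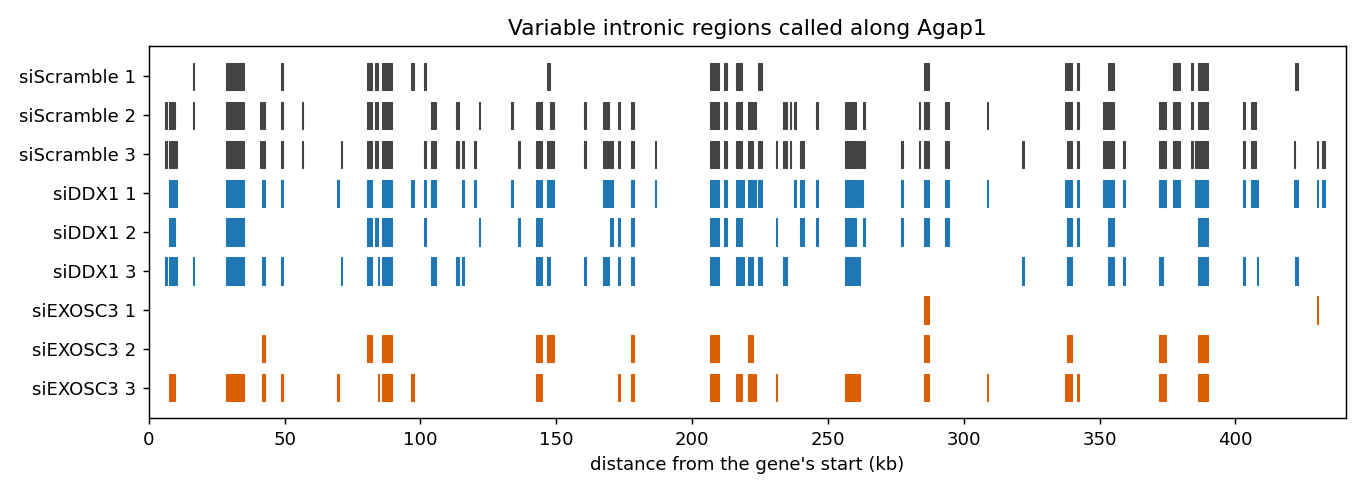
Variable intronic regions called along Agap1, by distance from its start (kb), 1 line per untreated library. Bars mark the extent of each region in the libraries that called it, and colours give the titled group. siEXOSC3 replicate 1 has 2 of the 77 regions, against 23 to 63 in siScramble libraries.

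The same ratio was tested in all 262 genes with 10 or more regions, a comparison added after values had been seen. An exact permutation p under 0.05 was reached by 51 genes (19.5% of those tested), none passed after adjustment (0% of those tested), and the smallest adjusted p was 0.0851. The smallest possible p of 0.00357 was reached by 11 genes, Kdm5b, Ncs1, Snd1, Odz4, Wwc2, Neo1, Hbs1l, Tmtc2, Fndc3a, Usp7 and Celf4. Among the 51 genes the mean was lowest in siEXOSC3 in 35, in siScramble in 9 and in siDDX1 in 7. Over all 262 genes it was lowest in siEXOSC3 in 147, in siScramble in 59 and in siDDX1 in 56. Genes are not independent samples, and the count is given without a test. Many of the 262 genes are longer than 100 kb, where siEXOSC3 libraries had a lower share of their calls. The count is therefore not separate from that result.

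Odz4, Alk and Magi1 followed the pattern of Agap1. For Odz4, siScramble libraries called 12, 26 and 31 of 38 regions, siDDX1 libraries 15, 8 and 16, and siEXOSC3 libraries 1, 2 and 7, with mean log2 ratios of 0.40, -0.22 and -2.24 (exact permutation p = 0.00357, adjusted p = 0.0851). For Alk, the calls were 7, 21 and 27, then 24, 14 and 19, then 1, 5 and 12 of 42, with mean ratios of -0.16, 0.20 and -1.75 (exact permutation p = 0.0107, adjusted p = 0.112). In each gene every siEXOSC3 ratio lay below every ratio of the other 6 libraries. Snd1 had calls of 17, 32 and 38 in siScramble, 28, 9 and 18 in siDDX1 and 6, 7 and 16 in siEXOSC3, with mean ratios of 0.55, -0.03 and -0.83 that did not overlap between any of the groups (exact permutation p = 0.00357, adjusted p = 0.0851).

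Other hosts went the opposite way or did not separate. Gm20388 had mean ratios of -0.18, 0.10 and 0.26 (exact permutation p = 0.00714, adjusted p = 0.112). Ncs1, a neuronal calcium sensor with 12 regions, had ratios of -2.56, -0.62 and 0.52, named after its values were seen. Ratios of Rere, Rptor, Ano6 and Dst gave exact permutation p between 0.0893 and 0.382.

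**Figure D5:**
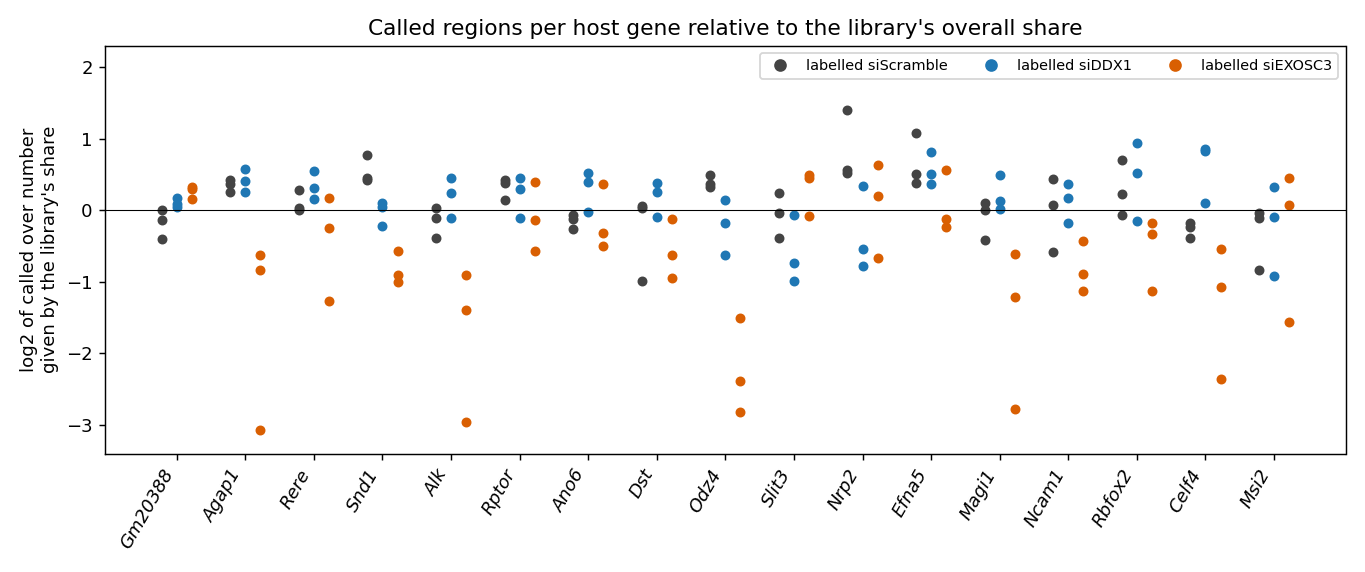
Log2 of the variable intronic regions called in a host gene over the number given by the library's overall share (vertical). Genes (horizontal) are those of 10 or more regions that the text names for how many they held. Kdm5b, Ncs1, Wwc2, Neo1, Hbs1l, Tmtc2, Fndc3a and Usp7, which reached the smallest possible p, are not shown. Each point is 1 untreated library, colours give the titled group, and the line at 0 marks the library's overall share. The siEXOSC3 points lie below 0 in Agap1, Alk, Odz4, Magi1 and Celf4 and above 0 in Gm20388.

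Gene lists chosen by function held variable intronic regions in between 40.0% and 66.7% of their members, against 24.2% of all coding genes and 36.9% of coding genes of 100 kb or more. Among axon guidance genes, 20 of 49 held 145 regions, led by the ligand gene Slit3 (36), the co-receptor gene Nrp2 (19) and the ephrin gene Efna5 (18). Slit3 calls were 6, 19 and 27 in siScramble, 11, 5 and 13 in siDDX1 and 9, 17 and 27 in siEXOSC3, so that here siDDX1 libraries had the lowest mean (exact permutation p = 0.0821). For Nrp2 and Efna5 the exact permutation p were 0.118 and 0.232.

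Neuronal adhesion and synapse genes gave 20 hosts of 50, with 137 regions. The scaffold gene Magi1 held 37, called 6, 20 and 25 times in siScramble, 25, 9 and 20 times in siDDX1 and 1, 5 and 13 times in siEXOSC3 (mean ratios -0.11, 0.21 and -1.54, exact permutation p = 0.00714, adjusted p = 0.112). The adhesion molecule gene Ncam1 held 35 (23 without siScramble replicate 3), with 4, 6 and 14 calls in siEXOSC3 libraries against 5, 20 and 30 in siScramble and 19, 11 and 15 in siDDX1 (exact permutation p = 0.0786).

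RNA-binding regulators gave 27 hosts of 49 with 174 regions, led by the splicing factor genes Rbfox2 (27) and Celf4 (27) and the translation regulator gene Msi2 (26). Celf4 calls were 5, 11 and 15 in siScramble, 18, 12 and 19 in siDDX1 and 1, 4 and 10 in siEXOSC3, with mean ratios of -0.27, 0.60 and -1.32 and no overlap between groups (exact permutation p = 0.00357, adjusted p = 0.0851). If the names inside the peak lists are right, the siEXOSC3-titled libraries here are the scramble controls. The authors report Celf4 regions with increased and with decreased R-loops on depletion, from read counts and not from calls. For Rbfox2 and Msi2 the exact permutation p were 0.0964 and 0.979. RNA exosome and nuclear cofactor genes gave 14 hosts of 21 with 30 regions. Papd7, a noncanonical poly(A) polymerase, held 6, the MTR4 helicase gene Skiv2l2 held 4 and the targeted gene Ddx1 held 3. The Ddx1 regions were called 2, 2 and 1 times in siScramble, 3, 1 and 1 times in siDDX1 and 0, 2 and 1 times in siEXOSC3, which do not separate. The lists differ in gene length, and per 100 kb of gene the order was another one. The adhesion and synapse list held 0.446 regions per 100 kb and the guidance list 1.41, both below the 1.70 over all coding genes. Their genes are long, with median lengths of 423 and 148 kb. Coding genes of 100 kb or more held 0.926, which is below the guidance list and above the adhesion and synapse list. The RNA-binding list held 3.40 and the exosome list 4.65.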

How the data were processed

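Peak lists of 12 DRIP-seq libraries of N2a cells were used, 9 untreated and 3 digested with RNase H. The 1 input sample was not analysed here. Per the labels and the methods, the authors aligned reads to mm9 with Bowtie2 2.4.4 and called peaks for each library with MACS2 2.2.6 against input. SAMtools, DESeq2 and HOMER 4.11 are also named in the submitters' processing notes. Each deposited list gives a display score (not used), the fold enrichment over local background as a ratio, and the −log10 p-value and −log10 q-value, written by the authors' peak caller. The lowest deposited −log10 q was 2.00. Replicates are separately seeded plates. Read counts were not used here, so calls per region took their place, and a change of signal inside a region called everywhere does not appear.

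From these lists, overlapping peaks of the untreated libraries were merged, and a library called a region when a peak of it covered at least 1 base. Fragments at the summit and of the background were recovered from the deposited fold and −log10 p-value, in whole numbers to within 0.002 in −log10 p for at least 99.9742% of the peaks of each list. The depth of each library is known only through this background, taken at the low end of the expected coverage over its peaks (0.544 to 1.29 fragments per position). Intervals were not set on single regions. Groups follow the sample titles. Tests were exact permutation tests over libraries (F over 280 deals, smallest p 0.00357; sign flips within libraries over 512 patterns, smallest p 0.00391; pairs over 20 assignments), two-sided except the agreement test, with Benjamini-Hochberg adjustment within families of 3 group tests, 3 pairs, 4 correlations, 7 class tests, 5 composition measures and 262 host genes. Same-numbered replicates of different groups did not deviate together (correlations -0.034 to 0.0529 over 9 pairs), so they were not paired. Named regions had the highest lowest −log10 q among those called in 1 group alone (3 each) or lacking in 1 group alone (2 each), or the highest median −log10 q (5). Named genes were the 10 hosts with most regions and the 3 leading genes of each of 4 lists (axon guidance, adhesion and synapse, RNA-binding regulators, RNA exosome), in which Draxin, Ptbp3 and Exosc6 were not found in the annotation. The members and lists were chosen with earlier results of these data known, and composition and host-gene tests were added after values were seen. A planned comparison of repeat content was not made, and some genes that the rule names are not reported here. Alternatives were a −log10 q of at least 5, joining of peaks up to 1000 bases apart, peaks covering most of a region, equal numbers of peaks, other distance rules, each library left out, and replicate number as a block. Code was tested on simulated data. Python 3.11.15, numpy 2.4.6, scipy 1.17.1 and matplotlib 3.10.9 were used.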

Additional observations from a re-analysis of the deposited data

How the results depend on the processing

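Results are calls on 5 to 7 fragments or more, and depth limits what a missing call means. The set shrank from 17055 regions to 9563 with −log10 q of at least 5, to 10399 with peaks up to 1000 bases apart joined and to 10482 with equal numbers of peaks, and held 15186 to 16467 regions when 1 library was left out. The test of the number called across groups did not pass under any of these settings. Agreement within minus between groups was 0.0346 with equal numbers of peaks (exact permutation p = 0.00357). It did not pass under the settings of q, joining, covering and distance (exact permutation p from 0.175 to 0.232). The log2 difference of siEXOSC3 and siDDX1 was 0.0177 with −log10 q of at least 5 (exact permutation p = 1), and leaving out 1 library moved the 3 pair differences over -0.63 to 0.21, -0.71 to 0.0692 and -0.43 to 0.27. Overlap with RNase H peaks minus that of constant regions was -0.88 points with −log10 q of at least 5 and 0.0760 with joined peaks. It was -3.22 when peaks had to cover most of the region, and -0.39 to -0.0572 without 1 library. Without siEXOSC3 replicate 3 the adjusted p was 0.0273 (exact permutation). GC content minus that of variable intergenic regions, which was -0.297 points (exact permutation, adjusted p = 0.0228), was 0.0186, -0.0330 and -0.0990 with −log10 q of at least 5, with covering peaks and with equal numbers, and -0.333 to -0.209 without 1 library. That call was lost in these 3 settings (adjusted p = 0.895, 0.754 and 0.355) and without siScramble replicate 3, siDDX1 replicate 1 or 2, or siEXOSC3 replicate 2 or 3 (exact permutation, adjusted p up to 0.164). The cause of these moves was not tested.

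All-or-none counts moved with the calls. The set held 9563 regions with −log10 q of at least 5, 10399 with joined peaks, 14114 with covering peaks and 10482 with equal numbers of peaks. The share over all regions called in 2 to 8 libraries was not taken under these settings, so no background stands beside the counts below. Counts are given for siDDX1 and siScramble, then for siEXOSC3 and siScramble, then for siEXOSC3 and siDDX1. With −log10 q of at least 5 they were 44 and 113, 58 and 120, and 64 and 85. With joined peaks they were 70 and 84, 84 and 151, and 85 and 128. With covering peaks they were 59 and 93, 79 and 153, and 72 and 112. With equal numbers of peaks they were 104 and 140, 120 and 209, and 101 and 249. Counts under the other distance rules are not listed. With 1 library left out the counts ran over 77 to 581, 151 to 1141, 138 to 564, 250 to 1570, 122 to 582 and 179 to 876 (siDDX1 over siScramble, siScramble over siDDX1, siEXOSC3 over siScramble, siScramble over siEXOSC3, siEXOSC3 over siDDX1, siDDX1 over siEXOSC3). Where the library left out belonged to the pair, its group had only 2 libraries to pass the rule, and the highest counts arose there.

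With replicate number as a block, exact permutation p were 0.972 for the number called, 0.806 for the share of peaks, 0.0556 for GC content, 0.0278 for long genes, 0.0556 for distance, 0.0833 for chromosome 11 and 0.694 for chromosome X. GC content of called regions kept non-overlapping siEXOSC3 values under every setting run. Its exact permutation p was 0.0214 to 0.0357 with 1 library left out, that of long genes 0.00714 to 0.0714 and that of distance 0.0143 to 0.1. Distance had p = 0.075 with joined peaks, chromosome 11 had p = 0.0107 with equal numbers and chromosome X had p = 0.00714 with joined peaks (exact permutation). Host genes with p under 0.05 numbered 22 of 85, 28 of 86 and 25 of 99 with −log10 q of at least 5, joined peaks and equal numbers. With 1 library left out they ran from 32 of 243 (13.2%, without siDDX1 replicate 3) to 54 of 215 (25.1%, without siEXOSC3 replicate 3). No host gene passed after adjustment under any of these settings. The planned comparison of repeat content was not run.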
